A study of Mus musculus with 5 samples.

Results

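CTCF, the zinc finger protein that binds insulators and the anchors of chromatin loops, was profiled by ChIP-seq in NIH3T3 cells, a fibroblast line from mouse embryos, and the narrowest of its peaks are described here. The members were chosen by width alone: they are the autosomal intervals of the deposited peak list that span under 190 bp. Of 22554 peaks on chromosomes 1 to 19, 1963 (8.70%) met the rule, out of 22756 in the whole list. A further 30 peaks of that width on chromosome X, 2 on Y and 1 on the mitochondrial genome were left out by the rule. They are set against the 11339 autosomal peaks wider than 261 bp, which are called wide here. The 9252 peaks of 190 to 261 bp lie between the classes.

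The cells carried stably integrated H2B-mCherry, the transactivator rtTA3G and CDX2 under the doxycycline-responsive TRE3G promoter, and all groups share these transgenes. CDX2 is a homeobox transcription factor of intestine and trophectoderm. Of 5 libraries, 2 were CTCF pull-downs after 6 h of doxycycline (labelled 500 ng/µL), 2 were CTCF pull-downs without doxycycline, and 1 was input chromatin without doxycycline. The peak list merges both conditions and ties no peak to a library, so doxycycline and no doxycycline were not compared, and no replicate spread exists for any value below. It has no heights or read counts, so the depth behind a peak is unknown.

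A peak's width is in general the length over which read pile-up passes a caller's threshold, and an interval merged over conditions may also join separate calls. Width depends on fragment length, on the strength of enrichment and on how neighbouring binding sites run together, none of which the list records. In mammals CTCF sites are found at promoters, inside genes and between genes. Those that anchor loops hold a directional core motif and are bound together with the cohesin ring.

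The narrow peaks began at 170 bp, with a median of 183 bp and quartiles of 179 and 186 bp, against a median of 317 bp and a maximum of 3800 bp for wide peaks. They covered 357 kb in all, against 4014 kb for wide peaks. The number of peaks per base pair of width climbed steeply inside the class and then levelled off: it averaged 31.0 at 170 to 174 bp, 79.0 at 175 to 179 bp, 138 at 180 to 184 bp and 145 over the last 5 widths under 190 bp. It was 143 at 190 to 194 bp and 128 at 200 to 261 bp. At the border itself, the last 2 widths inside the class had 155 and 133 peaks, and the first 2 outside it, 190 and 191 bp, had 150 and 148. The limit of 190 bp therefore falls on the shoulder of the width distribution and not in a gap. These values describe the rule and carry no test.

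**Figure D1:**
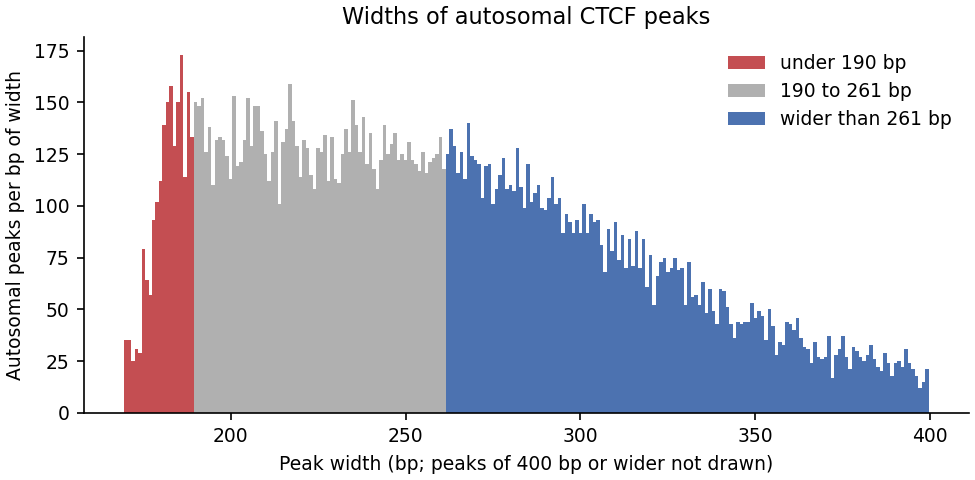
Number of autosomal CTCF peaks (y axis) at each width in bp (x axis, up to 399 bp), with peaks under 190 bp in red, 190 to 261 bp in grey and wider ones in blue. No autosomal peak is narrower than 170 bp, and counts climb from 31.0 per bp at 170 to 174 bp to 145 per bp over the last 5 widths under 190 bp.

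To show what the narrow peaks look like as DNA, sequences are given for peaks that lie whole inside a promoter window of the RefSeq table (GRCm38.p6, the assembly behind mm10, 250 bases before to 50 after a start site). Each is printed 5′ to 3′ on the gene's strand. Capitals mark the CTCF core consensus of 12 letters, with its degenerate positions, or the shorter AGGNGGC, where they were found on either strand. The S100a6 peak, chr3:90612724-90612912, has its midpoint 76 bases before the start of this calcium-binding protein gene and was the one among those whole inside a window that held the core consensus. The Elavl4 peak, chr4:110351881-110352069, has its midpoint 64 bases before the promoter table's start of a neuronal RNA-binding protein gene (36 bases from the start in the gene annotation, which differs) and held AGGNGGC at 2 places, a pair on opposite strands. The Gclm peak, chr3:122245333-122245512, belongs to the modifier subunit of glutamate-cysteine ligase, an enzyme of glutathione synthesis, and held it once. The Cdk6 peak, chr5:3343750-3343933, lies at the start of a cyclin-dependent kinase gene of the cell cycle and also held it once.
S100a6 peak: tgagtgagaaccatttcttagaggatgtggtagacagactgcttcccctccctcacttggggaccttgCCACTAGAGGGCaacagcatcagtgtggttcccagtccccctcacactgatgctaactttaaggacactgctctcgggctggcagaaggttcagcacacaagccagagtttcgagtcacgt
Elavl4 peak: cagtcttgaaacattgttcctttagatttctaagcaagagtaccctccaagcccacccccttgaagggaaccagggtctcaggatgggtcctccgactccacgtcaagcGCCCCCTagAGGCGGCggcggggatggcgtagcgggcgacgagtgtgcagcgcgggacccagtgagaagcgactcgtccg
Gclm peak: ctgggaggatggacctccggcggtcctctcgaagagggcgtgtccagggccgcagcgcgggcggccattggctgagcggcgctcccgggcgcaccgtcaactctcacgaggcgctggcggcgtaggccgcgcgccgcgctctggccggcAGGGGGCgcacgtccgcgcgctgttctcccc
Cdk6 peak: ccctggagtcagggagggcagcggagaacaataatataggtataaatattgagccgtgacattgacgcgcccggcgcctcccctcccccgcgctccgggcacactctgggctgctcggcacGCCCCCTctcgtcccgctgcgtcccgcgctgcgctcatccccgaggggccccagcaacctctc

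The next sequences show a shared promoter and a peak with neither motif. The peak at chr14:77036586-77036770 has its midpoint between the start sites of Lacc1 and Ccdc122, which are read in opposite directions. That midpoint lies 61 bases before the start of Lacc1 and 94 bases before that of Ccdc122. The peak itself runs over the start of Lacc1. It is printed on the strand of Lacc1, has 30 CpG dinucleotides and 80.0% G and C, and held AGGNGGC once. The Ptpn20 peak, chr14:33589095-33589274, covers the annotated start of a protein tyrosine phosphatase gene, has 11 CpG and 62.8% G and C, and held neither motif.
Lacc1 peak: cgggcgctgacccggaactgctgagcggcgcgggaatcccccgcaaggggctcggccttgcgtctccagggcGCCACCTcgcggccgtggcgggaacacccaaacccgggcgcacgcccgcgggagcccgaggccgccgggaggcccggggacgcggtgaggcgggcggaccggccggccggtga
Ptpn20 peak: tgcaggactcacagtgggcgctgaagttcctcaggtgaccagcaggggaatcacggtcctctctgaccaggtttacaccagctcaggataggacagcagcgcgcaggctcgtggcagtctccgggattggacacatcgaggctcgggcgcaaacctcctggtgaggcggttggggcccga

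Promoter windows of 300 bases with the midpoint of a narrow peak held the core consensus in 2 of 40 cases (5.00%, exact 95% interval 0.611 to 16.9%). Among windows with the midpoint of a wide peak it was 98 of 588 (16.7%, 13.7 to 19.9%). Among all 31365 windows, which cover every autosome but chromosome 18, it was 180 (0.574%). AGGNGGC was found in 19 of the 40 (47.5%), 374 of the 588 (63.6%) and 29.4% of all windows. The difference between narrow and wide peaks did not pass for either motif (adjusted p = 0.0701 for both, two-sided Fisher's exact test over 2 motifs), and with 40 windows the interval is broad. The median share of G and C was 61.2% in windows with a narrow peak, 61.3% in those with a wide peak and 53.0% in all windows. The quartiles were 50.2 and 69.8% with a narrow peak and 55.3 and 66.7% with a wide one, and the median number of CpG was 15.5, 20 and 7. A match is a string of letters and no proof of binding.

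Narrow peaks lay at gene ends less often than wide peaks. Of the 1963 narrow peaks, 265 (13.5%, exact 95% interval 12.02 to 15.1%) were centred no more than 1 kb from the start or end of an annotated gene, against 2178 of 11339 wide peaks (19.2%, 18.5 to 20.0%). At ends of protein-coding genes there were 153 narrow peaks (7.79%) and 1507 wide peaks (13.3%), a ratio of 0.587, against 0.703 for any gene. Both differences passed (adjusted p = 1.13e-09 and 2.65e-12, two-sided Fisher's exact test with Benjamini-Hochberg adjustment over 8 shares). The narrow share was lower on 17 of 19 autosomes for all genes, with chromosomes 12 and 19 the exceptions, and on 18 of 19 for protein-coding genes. For all genes the narrow share ran between 5.39% on chromosome 5 and 21.7% on chromosome 19. The wide share for all genes ran between 15.4% on chromosome 4 and 24.7% on chromosome 14. Fisher's test counts neighbouring peaks as independent, which they are not, so the counts of autosomes stand beside it.

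At start sites, which the promoter table gives with strand on 18 of the autosomes (none on chromosome 18), the pattern was alike. Of 1910 narrow peaks 116 (6.07%) lay within 1 kb of a start site, against 1168 of 11110 wide peaks (10.5%), with adjusted p = 1.19e-09 over 4 distances by Fisher's exact test. Within 150 bp there were 36 (1.88%) and 482 (4.34%). The start-site comparison was added after the data had been seen. By kind of gene, ends of long non-coding RNA genes had 77 narrow peaks (3.92%) and 616 wide peaks (5.43%). Ends of pseudogenes had 28 narrow peaks (1.43%, 0.9499 to 2.06%) and 111 wide peaks (0.979%, 0.806 to 1.18%), with intervals that overlap.

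Outside genes lay 738 narrow peaks (37.6%, 35.4 to 39.8%) and 3687 wide peaks (32.5%, 31.7 to 33.4%), a difference that passed (adjusted p = 2.07e-05, Fisher's exact test) and was higher for narrow peaks on 16 of 19 autosomes. Inside gene bodies away from the ends the shares were 48.9% and 48.3%, a difference of 0.63 percentage points that did not pass (adjusted p = 0.650, Fisher's exact test). Narrow peaks inside genes were in longer ones than wide peaks were. The protein-coding gene around a narrow peak had a median length of 76.1 kb (quartiles 30.02 and 196 kb, 950 peaks), against 52.3 kb (21.1 and 131 kb, 5699 peaks) for wide peaks. This held on 16 of 19 autosomes (exact two-sided sign test over autosomes, adjusted p = 0.00443 over 3 medians). The median number of protein-coding genes within 100 kb was 3 around narrow peaks and 4 around wide peaks, lower on 13 autosomes, equal on 5 and higher on 1 (adjusted p = 0.00275, exact sign test). Against the peaks of 190 to 261 bp neither passed: the gene length was 76124.5 bp against 71694 bp (adjusted p = 0.0576, exact sign test) and the number of genes was 3 against 3. Among peaks with 3 or more such genes nearby, 16.9% of narrow and 23.4% of wide peaks lay at an end of any gene (adjusted p = 1.66e-06), and with 2 or fewer it was 9.29% and 10.8% (adjusted p = 0.265, Fisher's exact test). At protein-coding ends the shares were 11.7% and 17.8% with 3 or more such genes (ratio 0.660, adjusted p = 8.99e-07) and 2.87% and 4.34% with 2 or fewer (ratio 0.661, adjusted p = 0.0919, Fisher's exact test). Whether the differences depend on the number of genes nearby was not tested.

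**Figure D2:**
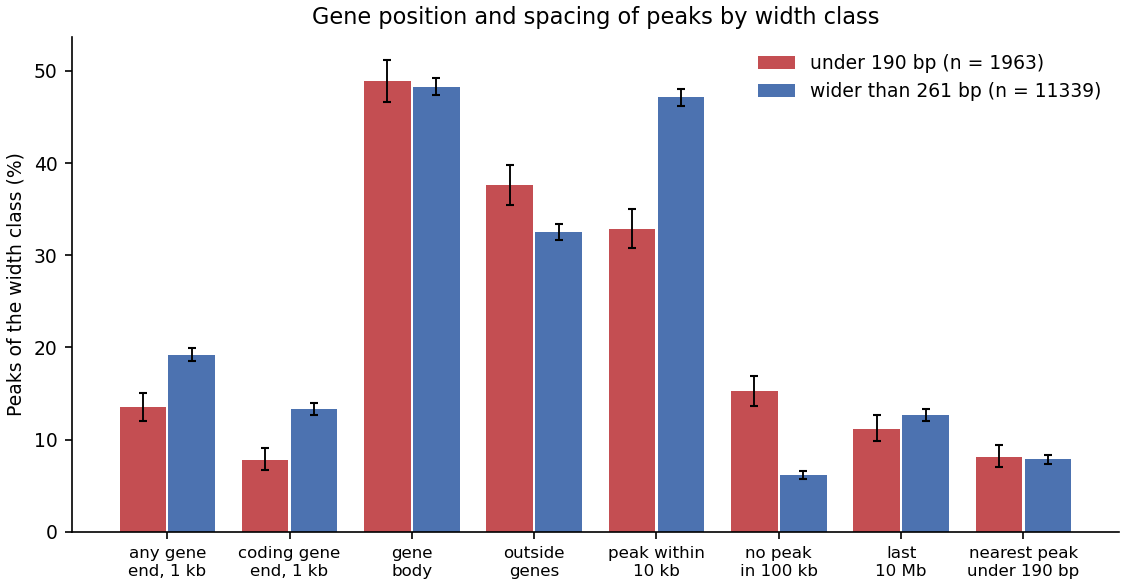
Share of peaks (y axis, %) with each of 8 positions or spacings (x axis), for 1963 peaks under 190 bp (red, left) and 11339 wider than 261 bp (blue, right), with exact 95% binomial intervals. The narrow bar is at 32.9% against 47.2% for another peak within 10 kb, and at 15.2% against 6.17% for no other peak within 100 kb.

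Narrow peaks also stood farther from other peaks. The median distance to the nearest peak of any width was 20.0 kb (quartiles 6.08 and 57.4 kb), against 11.2 kb (3.75 and 30.3 kb) for wide peaks, and it was larger on 18 of 19 autosomes (exact sign test over autosomes, adjusted p = 0.000229). Another peak lay within 10 kb of 645 narrow peaks (32.9%, 30.8 to 35.0%) and of 5347 wide peaks (47.2%, 46.2 to 48.1%), with adjusted p = 6.84e-32 by Fisher's exact test and a lower narrow share on every autosome but chromosome 19. There the narrow share was 58.7%, the highest of any autosome. No other peak lay within 100 kb of 299 narrow peaks (15.2%, 13.7 to 16.9%), against 700 wide peaks (6.17%, 5.74 to 6.63%). That share was higher for narrow peaks on all 19 autosomes (adjusted p = 1.44e-36, Fisher's exact test). More than 250 kb separated 114 narrow peaks (5.81%) and 146 wide peaks (1.29%) from their neighbours.

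The most isolated narrow peak, chr14:87567222-87567404, had no other peak within 5197 kb. Its nearest protein-coding gene, 21.8 kb away, was Tdrd3, which encodes a Tudor-domain protein that reads arginine methylation. The next lay 436 kb from Klhl1, also on chromosome 14, with 2188 kb to its neighbour.

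**Figure D3:**
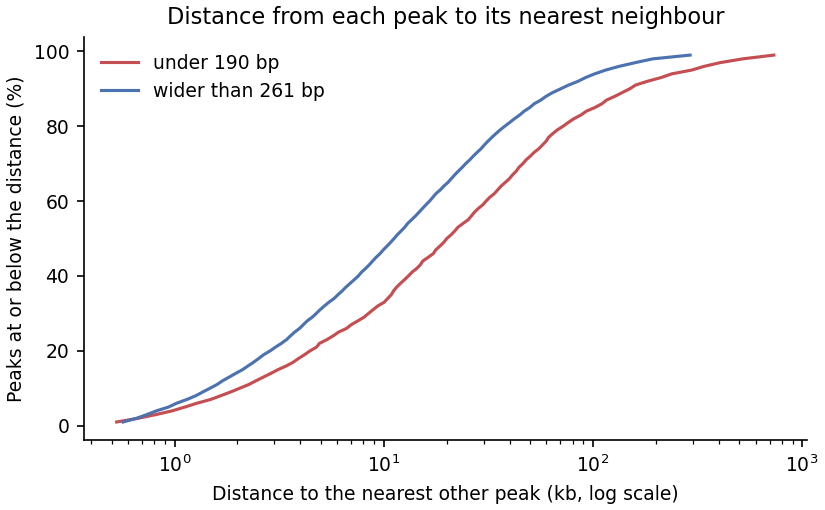
Cumulative share of peaks (y axis, %) by the distance to the nearest other autosomal peak in kb (x axis, log scale), for peaks under 190 bp (red) and wider than 261 bp (blue), drawn at the percentiles 1 to 99. The red curve lies to the right over most of the range, with medians of 20.0 kb and 11.2 kb.

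The nearest other peak was itself narrow for 160 of 1963 narrow peaks (8.15%, 6.98 to 9.45%) and for 890 of 11339 wide peaks (7.85%, 7.36 to 8.36%), a difference that did not pass (adjusted p = 0.650, Fisher's exact test). Both shares are near the 8.70% that narrow peaks make up of all autosomal peaks. The 645 narrow peaks with a neighbour within 10 kb had a wide peak as that neighbour in 340 cases (52.7%), against 3149 of 5347 for wide peaks (58.9%), and wide peaks were 50.3% of all autosomal peaks. Successive narrow peaks were a median of 599 kb apart. With no other peak between them stood 183 successive pairs, in 153 runs of 2, 13 runs of 3 and 1 run of 5. The run of 5, with widths of 183, 181, 186, 175 and 180 bp, spanned 188 kb at chr14:120791947-120979846 around Ipo5, a nuclear import receptor gene. Its middle peak lay 1.18 kb from the end of the gene. The closest narrow pair, 0.640 kb apart by midpoints at chr7:84355695-84356519, was at Arnt2, which encodes a transcription factor partner of the bHLH-PAS family.

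The gene-end share and the spacing were also followed over ranges of width. Within 1 kb of a gene end lay 10.7% of the 550 peaks of 170 to 179 bp (8.27 to 13.6%), 14.6% of the 1413 from 180 bp to the limit (12.8 to 16.5%), 12.8% at 190 to 216 bp and 14.5% at 217 to 261 bp. The share then was 17.1% above 261 bp and up to 316 bp, 20.8% at 317 to 499 bp and 23.9% at 500 bp or wider. Another peak within 10 kb was found for 30.9%, 33.6%, 36.4%, 37.2%, 41.2%, 51.4% and 62.3% of peaks over the same ranges, narrowest first. The median distance to the nearest peak was 24.6 kb at 170 to 179 bp, 18.8 kb from 180 bp to the limit, and 6.30 kb at 500 bp or wider. Against the peaks of 190 to 261 bp, a comparison added after the data had been seen, narrow peaks showed no passing difference at gene ends (13.5% against 13.9%, adjusted p = 0.747) or outside genes (37.6% against 36.8%, adjusted p = 0.716, Fisher's exact test). The median distance to the nearest peak was 20016 bp against 17760 bp and lost its call (adjusted p = 0.251, exact sign test over autosomes). The spacing shares still passed: another peak within 10 kb was at 32.9% against 36.9% (adjusted p = 0.00618) and none within 100 kb at 15.2% against 12.6% (adjusted p = 0.00681), each by Fisher's exact test.

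**Figure D4:**
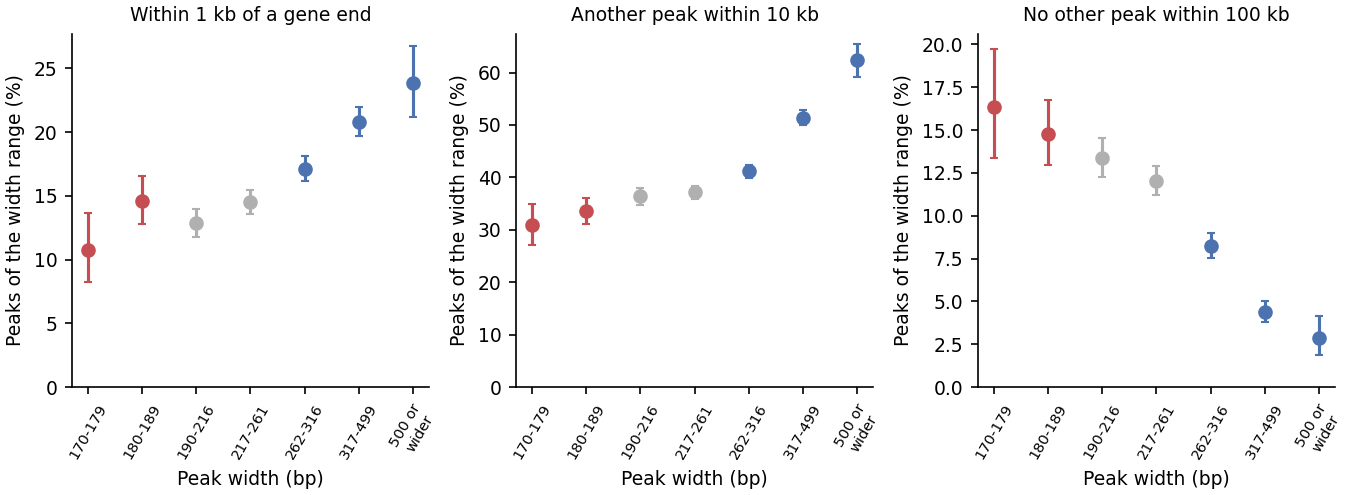
Share of peaks (y axis, %) within 1 kb of a gene end, with another peak within 10 kb, and with no other peak within 100 kb, by range of width in bp (x axis), with exact 95% binomial intervals and peaks under 190 bp in red, 190 to 261 bp in grey and wider ones in blue. The gene-end share is 10.7% at 170 to 179 bp and 23.9% at 500 bp or wider, and most of that span lies above 261 bp.

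By chromosome, narrow peaks made up the largest share of peaks on chromosomes 14 and 13. Chromosome 14 had 79 among 633 peaks (12.5%, exact 95% interval 10.0 to 15.3%) and chromosome 13 had 76 among 695 (10.9%, 8.71 to 13.5%). Chromosome 11, with 192 among 2527 (7.60%, 6.60 to 8.70%), had few for its wide peaks. Compared with wide peaks on the same and on the other autosomes, the odds ratio was 1.82 on chromosome 14 (adjusted p = 0.000278), 1.65 on chromosome 13 (adjusted p = 0.00186) and 0.739 on chromosome 11 (adjusted p = 0.00140), by two-sided Fisher's exact test. These 3 of 19 autosomes were called, or 15.8%. The other 16 did not pass, and their shares ran between 7.35% on chromosome 7 and 10.3% on chromosome 12. Set against all other peaks in place of wide ones, chromosome 14 still passed (adjusted p = 0.0234) and chromosomes 13 and 11 did not (adjusted p = 0.243 for both, Fisher's exact test). These tests also count neighbouring peaks as independent, and no count over autosomes can stand beside a test of a single autosome. Their p-values may therefore be too small.

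The spacing on these chromosomes differed in the same direction as elsewhere. On chromosome 14, 10 of 79 narrow peaks (12.7%) had another peak within 10 kb, against 78 of 255 wide peaks (30.6%). On chromosome 13, 22 of 76 narrow peaks (28.9%) had no other within 100 kb, against 36 of 271 wide peaks (13.3%). On the crowded chromosome 11, 6 of 192 narrow peaks (3.12%) and 32 of 1450 wide peaks (2.21%) were that far apart. The last 10 Mb of the chromosomes held 219 narrow peaks (11.2%) and 1434 wide peaks (12.6%), a difference that did not pass (adjusted p = 0.0925, Fisher's exact test) and was lower for narrow peaks on 13 autosomes and higher on 6. Chromosome 14 was among the 6, with 9 of 79 narrow peaks (11.4%) and 4 of 255 wide peaks (1.57%). The run of 5 narrow peaks around Ipo5, within 188 kb, lies in that stretch and is part of the 9. In windows of 1 Mb, 1174 of the 2138 with a peak had a narrow one. Windows were ranked by their number of narrow peaks, so those crowded with peaks of any width come first. Over all autosomes narrow peaks make up 8.70% of peaks. The fullest, chr11:116000001-117000000, held 8 among 83 peaks, of which 2 were in or within 10 kb of the ubiquitin-conjugating enzyme gene Ube2o. The next were chr19:4000001-5000000 with 7 among 54, at genes such as the muscle alpha-actinin gene Actn3 and the calcium-binding protein gene Cabp4, and chr11:117000001-118000000 with 7 among 72, at genes such as Birc5, which encodes survivin, and the thymidine kinase gene Tk1.

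**Figure D5:**
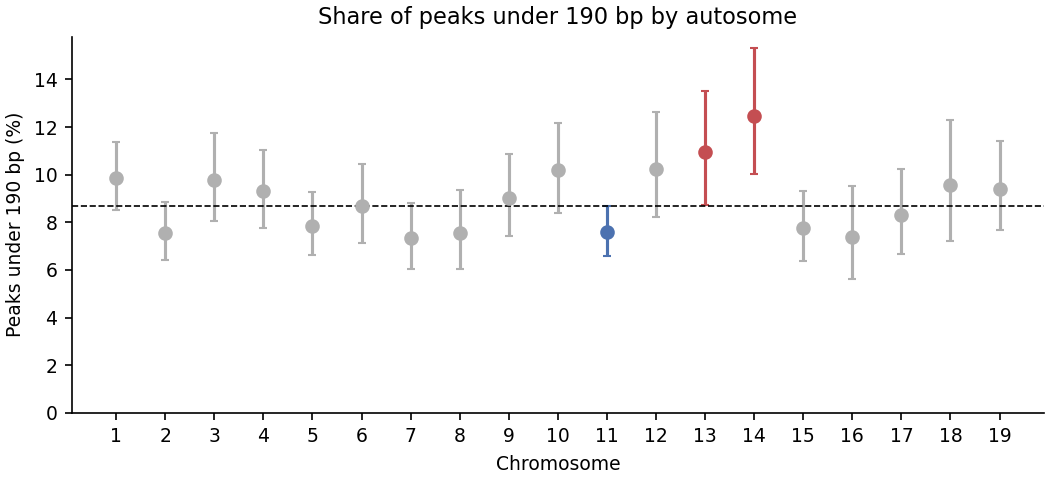
Peaks under 190 bp as a share of all peaks of each autosome (y axis, %; x axis, chromosome), with exact 95% binomial intervals and the autosomal share of 8.70% as a dashed line. Red marks chromosomes 13 and 14, higher against wide peaks, and blue marks chromosome 11, lower, at an adjusted p below 0.05.

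Few genes collected several narrow peaks. A narrow peak lay in the body of 885 protein-coding genes out of 20560 (4.30%), and 68 had 2 or more (0.331%). A wide peak lay in the body of 4021 (19.6%), and narrow peaks make up 8.70% of all autosomal peaks. Ranking by this count favours long genes and genes with many peaks. Of those ranked first, Smyd3 spans 566094 bp and She 27477 bp, against a median of 17.6 kb over all protein-coding genes. Smyd3, a gene of a SET-domain methyltransferase on chromosome 1, had the most, with 4 narrow peaks among 9 peaks, of which 2 were wide, and the narrowest had 178 bp. Fcho2, an endocytosis gene on chromosome 13, had 3 peaks in its body, all narrow, at 188, 173 and 187 bp, and no other peak within 10 kb. Mthfd1l, a mitochondrial enzyme gene of folate metabolism on chromosome 10, had 3 narrow peaks among 4, a pair of them 1.19 kb apart. She on chromosome 3, an SH2-domain adaptor gene, had 3 among 4 and none that was wide. The kinase gene Cdk18 had 3 among 5, the sugar transporter gene Slc2a13 had 3 among 6, Rptor, a subunit of the growth regulator mTORC1, had 3 among 7, and the ataxin gene Atxn1 had 3 among 10. The remaining genes by this count, Gm38666 and Gm38667 on chromosome 18, overlap each other, share the same 3 narrow peaks among 16 and 15, and contain the beta protocadherin cluster.

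The closest gene ends to the midpoint of a narrow peak were those of Zbtb41, Ptpn20, Hils1, Ddx46 and Mfhas1, at 8, 9, 12, 18 and 25 bp. The zinc finger gene Zbtb41 and the translation initiation gene Eif5b (28 bp) had that peak of 181 and 182 bp at the start as their single peak within 10 kb of the gene. So did the RNA-binding gene Elavl4 (36 bp). The RNA helicase gene Ddx46 had it beside 2 other peaks, 1 of them wide. At the heparan sulfate enzyme gene Hs3st5 the peak lay 31 bp from the end of the gene. At the protocadherin gene Pcdhb3 the distance was 30 bp. Among the 35 peaks of 170 bp, the narrowest, the first 10 in genome order included 6 inside a protein-coding gene (Relch, Clasp1, Rgs5, Lmx1b, Tfpi and Itpripl1), and the other 4 lay 14991 to 56720 bp from Arl14, Pgap4, Mup18 and Zfp704.

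Gene lists were read against all protein-coding autosomal genes, of which 1581 had a narrow peak in the body or within 10 kb (7.69%) and 7440 a wide one (36.2%). Members share peaks and differ in length, so these counts carry no test. Hox genes, which pattern the body axis and whose clusters CTCF divides into domains, had no narrow peak at 39 genes and a wide one at 24, from 12 distinct peaks. Trophectoderm genes had no narrow peak at 19 genes and a wide one at 12. At the 7.69% over all genes, lists this short would hold few genes with a narrow peak. Neither absence is therefore read as a trait of these genes. Of 37 fibroblast genes 7 (18.9%) had a narrow peak and 19 (51.4%) a wide one, both above the shares over all genes. Their median length was 31.8 kb, against 17.6 kb over all genes. The growth factor gene Tgfb1 had 2 narrow peaks of 187 and 171 bp in its body, 1.60 kb apart, and 1 wide peak nearby. The smooth muscle actin gene Acta2 had 1 of 179 bp, 1.12 kb from its end, and the collagen gene Col5a1 and the matrix gene Fbln1 had 1 each beside 4 wide ones.

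Immediate early and AP-1 genes, which respond within minutes to growth signals, had a narrow peak at 5 of 20 genes (25%) and a wide one at 6 (30%). The narrow share is the highest among the lists, but with 20 genes it is not read as a trait of them. The phosphatase gene Dusp1 had 1 narrow peak in its body, 393 bp from the start. The AP-1 gene Fosl1 had 1 of 186 bp in its body. Ier3 and Ier5 had 1 of 179 bp each, 7.01 and 4.94 kb beyond the end. Intestinal epithelium genes had 2 of 33 with a narrow peak (6.06%) and 13 with a wide one. Those were Klf4, a Krüppel-like factor of differentiating epithelium, with 1 of 184 bp in its body and no other peak within 10 kb, and the lactase gene Lct with 1 of 177 bp, 474 kb from its nearest other peak. The list of 21 cohesin and CTCF genes also holds Yy1, a transcription factor gene that is neither. On this list 2 genes had a narrow peak. Yy1 had 2, of 173 and 188 bp, among 12 peaks of which 9 were wide. The cohesin loader gene Nipbl had 1 of 180 bp. Imprinted genes had a narrow peak at 3 of 44, where Cd81 and Tssc4 share the same peak on chromosome 7 and Commd1 has 1 of 185 bp.

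Among families of many copies, clustered protocadherins had a narrow peak at 7 of 57 genes (12.3%) from 3 distinct peaks, at genes such as Pcdhb2, Pcdhb3, Pcdhb15 and Pcdhb16, against 32 genes with a wide one. Replication-dependent histone genes had 6 of 69 (8.70%) from 3 distinct peaks, at H1f4 and H2bc6, which share a peak of 187 bp, and at H1f6 and H2bc4, which share 1 of 188 bp. A wide peak lay at 10 of the 69 (14.5%). Olfactory receptors had a narrow peak at 6 of 1099 (0.546%), among them Olfr1419, Olfr1499, Olfr1500 and Olfr155, and a wide one at 19 (1.73%). Vomeronasal receptors had no narrow peak at 349 genes and a wide one at 6 (1.72%). Both receptor families thus had few peaks of either width, while 36.2% of all genes had a wide one. Zfp genes had a narrow peak at 23 of 386 (5.96%), such as Zfp319, Zfp36, Zfp395 and Zfp446, and a wide one at 69 (17.9%). In such families short reads can map to several copies, so their counts are uncertain. Keratin genes had a narrow peak at 1 of 105, near Krtap5-2, and a wide one at 20 (19.05%).

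Ribosomal protein genes had a narrow peak at 7 of 82 (8.54%) and a wide one at 48 (58.5%). Fau and the mitochondrial ribosomal gene Mrpl49, neighbours on chromosome 19, share a narrow peak of 182 bp, 573 and 765 bp from their starts. Rpl12, Rpl24 and Rpl27a had 1 narrow peak each, and for Rpl24 it was the single peak. Mitochondrial ribosomal protein genes had 6 of 78 (7.69%) and 38 with a wide peak, with Mrpl15, Mrpl23 and Mrpl30 among the 6. Collagen genes, which are long, had 7 of 42 (16.7%) and 32 with a wide peak, led by Col19a1 with 2 narrow peaks and followed by Col11a1, Col14a1 and Col16a1 with 1 each. Potassium channel genes had 12 of 91 (13.2%) and 39 with a wide peak (42.9%), led by Kcnq3 with 2 narrow peaks and including Kcnb2, Kcnc2 and Kcng1. Solute carrier genes had 37 of 358 (10.3%) and 162 with a wide peak (45.25%). Among them were Slc2a13 with 3 narrow peaks, Slc39a11 with 2 among 32 peaks, Slc9c1 with 2 and Slc10a7 with 1. Over all genes the shares were 7.69% narrow and 36.2% wide. Median lengths were 36.2 kb for potassium channel and 29.0 kb for solute carrier genes, against 17.6 kb over all genes.

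The remaining lists lay near or below the share over all genes. Transmembrane Tmem genes had 12 of 228 (5.26%), including Tmem132d, Tmem144, Tmem184b and Tmem185b. Rab genes had 4 of 55 (7.27%), namely Rab1a, Rab31, Rab37 and Rab4a, and ADAM and ADAMTS genes 3 of 53 (5.66%), with 2 narrow peaks at Adamts2 and 1 each at Adam8 and Adam11. Forkhead genes had 1 of 41 (Foxi1), Sox genes 1 of 18 (Sox10, in its body) and T-box genes 1 of 15 (Tbx2, beside 7 wide peaks). No narrow peak lay inside Actb, Myc, Ctcf, Rad21, Cdx2, Hoxd13, Hoxa9, Igf2 or H19, or within 10 kb of these genes. Myc, Rad21, Igf2 and H19 had no peak of any width over that span. Since 7.69% of all genes had a narrow peak, so short a list would hold few of them. The absence is therefore not read as a trait of these genes. The nearest narrow peak to Cdx2 lay 20.6 kb from the closer of its start and end, and 2 of the 3 peaks at Cdx2 were wide.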

How the data were processed

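The deposited data were 1 list of 22756 peak intervals in 3 columns (chromosome, start, end), which the authors merged over treated and untreated cells before they deposited it, per the file's name, and which holds positions and no score. STAR, Picard, MACS2 and the builds mm10 and dm6 are named in the submitters' processing notes, while roles, versions, the peak threshold and the merging rule are not given in the sources used. Reads were paired, of 37 nt, with an insert size selection of 250 bp, per the labels' protocols. Groups came from sample titles. Coordinates are mm10, counted from 1.

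Gene positions and promoter sequences are from RefSeq GRCm38.p6. Entries placed below 3 Mb, where mouse autosomes hold no sequence in this build (328 genes), were left out, and 46714 autosomal genes were used. A midpoint placed a peak. Shares were compared by Fisher's exact test, medians by an exact sign test over autosomes, both two-sided with Benjamini-Hochberg adjustment and a threshold of 0.05 (Python 3.11.15, scipy 1.17.1). Fisher's tests of shares and of autosomes were checked on simulated labels drawn independently for each peak. That check does not cover the sign test on medians or the dependence between neighbouring peaks. Intervals are exact (Clopper-Pearson) at 95% and cover only the counting of peaks.

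Named genes were the 10 with most narrow peaks in the body, the 10 with an end closest to one, those next to the 10 narrowest peaks, up to 4 members of each of 24 lists with most narrow peaks, genes in the 3 fullest 1 Mb windows, and 9 fixed genes; 1 gene under this rule is not reported here. Peaks of Ipo5, Arnt2, Tdrd3 and Klhl1 and the printed sequences were chosen after their values were seen. Members and lists were chosen with earlier results of these data known. Alternatives varied the width limits, the comparison class, the distances, the genes and the chromosomes used. The sequence under most peaks was not analysed here.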

Additional observations from a re-analysis of the deposited data

How the results depend on the processing

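No paired analysis was possible because no peak is tied to a library, and leaving out replicates was not possible for the same reason. Of 141 recomputed values 119 stayed as they were, which for a test means the same side of the threshold with no change of sign and for a count within 1.5 times. They include the median of genes nearby at 3 against 3, a difference of 0, against all other peaks and with chains thinned. The differences (narrow minus wide) for gene ends, outside genes, another peak within 10 kb and none within 100 kb kept theirs with narrow limits of 180 and 200 bp, other distances, protein-coding genes only, any overlap, chains thinned (no value for another peak within 10 kb), chromosome 11 left out and the sign test, each where it applies. Against peaks of 190 to 261 bp, added after seeing the data, calls were lost for any gene end (-0.346 points), protein-coding ends (-0.982), outside genes (0.760), and the medians of distance (2256 bp), genes nearby (0) and gene length (4430.5 bp), and the body share (-0.414) and the nearest-narrow share (-1.10) changed sign. With 2 or fewer genes within 100 kb, also added, any gene end (-1.50), protein-coding ends (-1.47, at a ratio of 0.661 against 0.587 over all peaks) and outside genes (2.97) lost their call, the body share changed sign (-1.47) and the last 10 Mb gained it (-3.05). The body share, never called, was also negative with chains thinned (-0.0570) and without neighbours within 10 kb (-0.00479). The last 10 Mb passed under 180 bp (-3.37), and the nearest-narrow share passed under 200 bp (1.68) and was -0.329 against all other peaks. Against all other peaks 1 autosome was called in place of 3. With gene bodies alone 885 genes had a narrow peak, against 1581. The causes were not tested. Without heights or counts, whether narrow peaks are weaker is not measured.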
